A study of Mus musculus with 36 samples.

Results

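The miR-26 and miR-101 families were followed in a mouse pre-B cell line while the transcription factor Ikaros was brought into the nucleus. Members were chosen by name, as every miRNA called miR-26a, miR-26b, miR-101a, miR-101b or miR-101c with any arm or copy suffix. The rule found 7 of the 469 miRNAs in the table, 4 of them miR-26 names (mmu-miR-26a-5p, mmu-miR-26a-2-3p, mmu-miR-26b-5p and mmu-miR-26b-3p) and 3 of them miR-101 names (mmu-miR-101a-5p, mmu-miR-101a-3p and mmu-miR-101b-3p). The prefix mmu, for mouse, is mostly left out below. The partner arms miR-26a-1-3p and miR-101b-5p and the copy miR-101c were not analysed here.

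A miRNA is cut from a hairpin, whose arms give a 5p and a 3p strand. Usually one strand, the guide, is kept in the silencing complex, and bases 2 to 8 of it, the seed, pair with target mRNAs. miR-26 and miR-101 are known as restrainers of growth. Both are known to target Ezh2, the methyltransferase of Polycomb that places methyl groups on histone H3 lysine 27, and the oncogene product Myc is known to repress miR-26a. The hairpins of miR-26 lie inside genes of the Ctdsp family of small phosphatases, which hold back entry into the cell cycle.

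B3 cells model the pre-BI stage, a dividing stage of B cell development, and nuclear Ikaros takes them on to the pre-BII stage, where growth stops. Cells of the Ikaros line carried a retroviral vector for HA-tagged Ikaros fused to the hormone-binding domain ERt2, followed by IRES and GFP. Cells of the control line carried the vector with ERt2, IRES and GFP but without Ikaros. Each line was sampled 3 times at 0, 2, 6, 12, 18 and 24 h, which gave 36 samples. 4-hydroxy-tamoxifen (4-OHT), which moves the fusion protein into the nucleus, was given at 0.5 uM to both lines, and the labels list it at 0 h too, where the methods of the study describe untreated cells. Both lines are sorted pools of transduced B3 cells rather than animals, and the replicates, which the labels number 1, 2 and 4, were separate culture batches, in order batches 4, 5 and 6 at 0 h and batches 1, 2 and 3 at all later times.

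The sequences below show what sets the members apart, with the seed in capitals. They are the mature sequences of RefSeq on GRCm38.p6, in which all 7 names were found.

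miR-26a-5p: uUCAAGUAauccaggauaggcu
miR-26b-5p: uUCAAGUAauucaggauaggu
miR-26a-2-3p: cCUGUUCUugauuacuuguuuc
miR-26b-3p: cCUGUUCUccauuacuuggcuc
miR-101a-3p: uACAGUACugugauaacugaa
miR-101b-3p: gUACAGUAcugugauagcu
miR-101a-5p: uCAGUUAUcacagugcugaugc

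miR-26a-5p and miR-26b-5p have the same seed, and over 21 bases counted from the 5′ end they differ at 2, C11U and C21U (the miR-26a-5p base first). The partner arms miR-26a-2-3p and miR-26b-3p have a seed of their own in common. No other miRNA of the table with a RefSeq sequence (391 of 469) had either seed. miR-101b-3p starts 1 base before miR-101a-3p, so that the seed of miR-101a-3p lies at bases 3 to 9 of miR-101b-3p, and over the 18 bases they have in common they differ by A16G, counted in miR-101a-3p. The 19 bases of miR-101c lie wholly inside miR-101a-3p. How the authors assigned a read that fits more than one such sequence is not given in the sources used here, so the levels of miR-26a-5p against miR-26b-5p and of miR-101a-3p against its copies carry that uncertainty.

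miR-26a-5p is made from a pair of hairpins and its reads cannot be told apart by origin, whereas miR-26a-2-3p comes from Mir26a-2 alone. In the GENCODE vM21 annotation of GRCm38, Mir26a-1 lies at chr9:119031796-119031885 in an intron of Ctdspl. Mir26a-2 lies at chr10:126995530-126995613 within Ctdsp2, where the exons of some transcripts cover it, and the miRNA gene Mir546 lies within 10 kb of it. Mir26b lies at chr1:74394310-74394394 in an intron of Ctdsp1. Mir101a lies at chr4:101346945-101347027 in an exon of the long noncoding RNA E130102H24Rik, and Mir101b at chr19:29135279-29135375 in an intron of Rcl1, a gene of ribosome assembly. Each of these hairpins is on the same strand as the gene around it (plus for all but Mir101a).

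Values are normalised expression on the log2 scale, so that a difference of 1 is a doubling. The whole table ran from 0.09 to 19.30, the median of a sample from 3.70 to 4.15, and the standard deviation (SD) of a miRNA within a group had a median of 0.36. The depth of the samples is unknown from these values. The marks of cell types were named after their values were seen. All 5 miRNAs taken as marks of blood cells were in the table, at ranks 2 (miR-181a-5p), 8 (miR-142-5p), 18 (miR-142-3p), 54 (miR-155-5p) and 236 (miR-150-5p) by mean level. Of 13 marks of other cell types, 5 were in the table. Their summed level was 12.96 to 13.88 in control samples and 12.72 to 13.74 in Ikaros samples, nearly all of it from the neural miR-9-5p (rank 17, 12.69 to 13.87). At 24 h 2 of the 5 were past the threshold, both higher in the Ikaros line, beside 39.9% of all miRNAs called in either direction. The myeloid miR-223-3p was 2.06 higher (SE 0.45, limma adjusted p = 0.00052) and the endothelial miR-126a-3p 0.67 higher (SE 0.18, adjusted p = 0.0031). The line differences of miR-9-5p, miR-200c-3p and miR-141-3p were 0.08, -0.13 and 0.03 (adjusted p = 0.77, 0.69 and 0.96). The line difference of miR-126a-3p was 1.57 at 0 h (adjusted p = 3.5e-07) and fell by 0.90 from 0 h to 24 h (adjusted p = 0.015), whereas that of miR-223-3p grew by 2.08 (adjusted p = 0.028). The part of such cells in the results was not tested.

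The members spanned most of the range of the table. miR-26a-5p was the 12th most abundant miRNA with a mean of 13.93, and it held between 0.790% and 2.54% of the summed linear values of a sample. miR-26b-5p followed at 10.79 (rank 52). miR-26b-3p had a mean of 6.98 (rank 121), miR-101a-5p 4.80 (rank 199) and miR-26a-2-3p 4.48 (rank 209). miR-101a-3p at 3.56 (rank 254) and miR-101b-3p at 2.37 (rank 315) were the lowest. The ranges of miR-101a-5p, miR-26a-2-3p and miR-101a-3p over the samples overlapped, whereas those of miR-26a-5p and miR-26b-5p lay apart from each other and above all others. The spread between replicates ran the other way, from a pooled SD of 0.14 for miR-26a-5p to 0.45 for miR-101a-3p and 0.54 for miR-101b-3p. The mature strands have 19 to 22 bases, and the levels compared here are not per length.

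**Figure D1:**
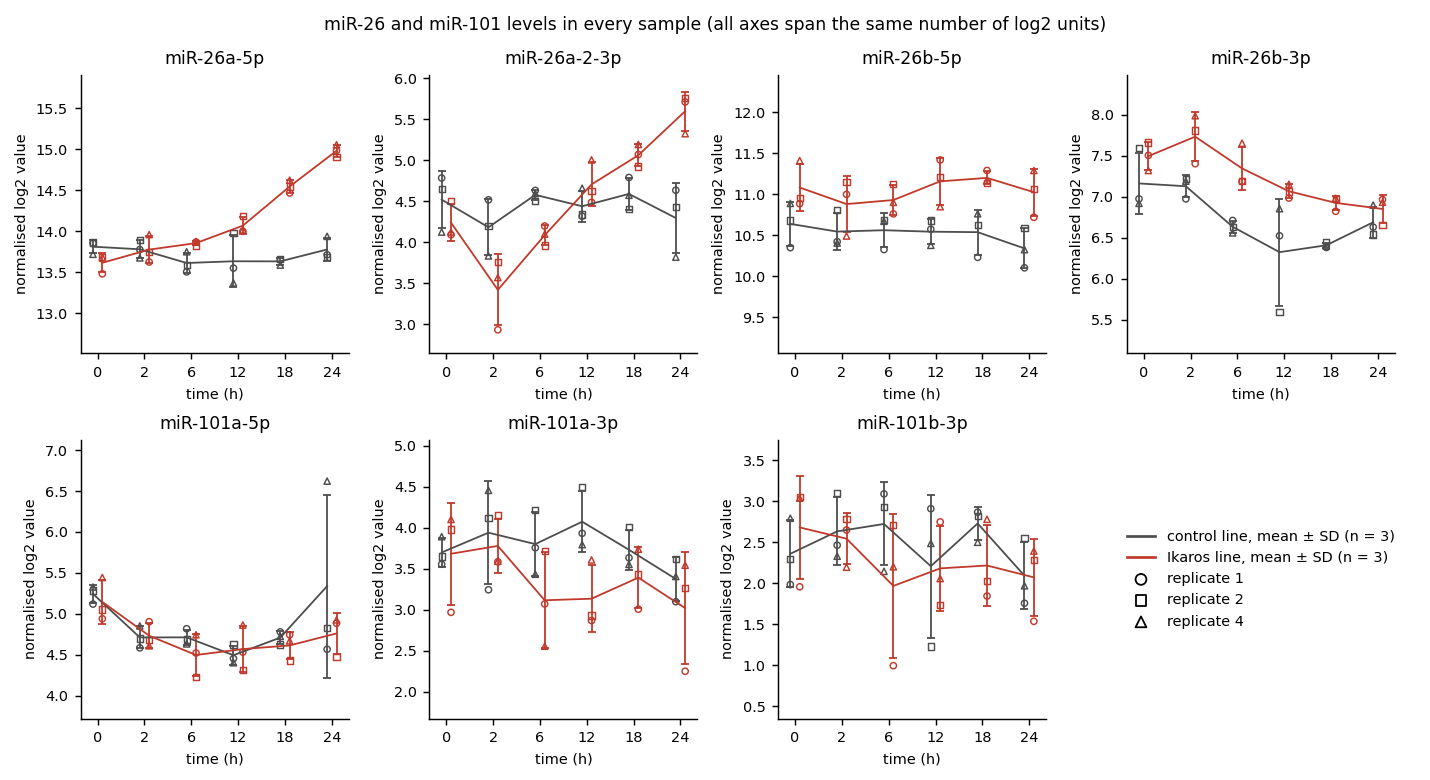
Normalised log2 value of each of the 7 miRNAs (y axis, every panel spanning the same number of log2 units) against time in hours (x axis, evenly spaced steps). Points are single samples, lines join the means of 3 samples and bars are the SD, with the control line in grey and the Ikaros line in red. miR-26a-5p and miR-26a-2-3p climbed in the Ikaros line, miR-26b-5p was higher in that line at 6 h and later with no such climb, and the groups of the miR-101 panels overlap except for miR-101a-3p at 12 h.

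The comparison of the lines at each time asks which miRNAs differ once Ikaros is nuclear. miR-26a-5p, the abundant guide strand, was level with the control line at 2 h and drew away from it step by step, to 2.30-fold higher at 24 h. Its partner strand from Mir26a-2 was 2.47-fold higher at 24 h after having been lower at 2 h. miR-26b-5p, which has the same seed as miR-26a-5p, was 1.61-fold higher at 24 h. At 24 h these 3 members of 7 were past the threshold (limma, adjusted p under 0.05 over the 469 miRNAs), all higher in the Ikaros line, where the test called 39.9% of all miRNAs in either direction and 17.9% as higher. The median line difference was 0.16 over the members and -0.07 over all miRNAs. In RNA of whole cultures, a change in every cell and a change in the share of cells cannot be told apart.

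In the control line, miR-26a-5p was at 13.85, 13.86 and 13.72 at 0 h (replicates 1, 2 and 4), at 13.78, 13.89 and 13.68 at 2 h, and at 13.51, 13.59 and 13.75 at 6 h. Later it stood at 13.55, 13.98 and 13.37 (12 h), 13.65, 13.66 and 13.59 (18 h) and 13.71, 13.68 and 13.94 (24 h). The lowest and the highest of the 18 control values, 13.37 and 13.98, were both taken at 12 h.

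In the Ikaros line, miR-26a-5p was at 13.48, 13.68 and 13.69 at 0 h, at 13.63, 13.75 and 13.96 at 2 h, and at 13.87, 13.83 and 13.88 at 6 h. It then reached 14.00, 14.19 and 14.02 (12 h), 14.47, 14.55 and 14.62 (18 h) and 14.99, 14.91 and 15.06 (24 h). The 3 Ikaros values lay below the 3 control values at 0 h, among them at 2 h, and above them at 6 h and every later time. Ordered by mean, the Ikaros groups of 24 h (14.98), 18 h (14.55) and 12 h (14.07) came first, and no 2 of these overlapped. The other 9 groups had means between 13.61 and 13.86, and all of them overlapped others in that range.

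The line difference of miR-26a-5p was -0.20 at 0 h, 0.00 at 2 h and 0.24 at 6 h (SE 0.13 each, limma adjusted p = 0.55, 0.99 and 0.25). It was 0.43 at 12 h (adjusted p = 0.016), 0.91 at 18 h (adjusted p = 2.9e-06) and 1.20 at 24 h (adjusted p = 1.4e-08). The 12 h call was lost when any 1 replicate was left out (adjusted p up to 0.16, and 0.011 to 0.41 over all alternatives), whereas those at 18 h and 24 h were kept in all 9 alternatives tried. At 24 h it was higher in the Ikaros sample of all 3 culture batches, by 1.27, 1.22 and 1.12.

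**Figure D2:**
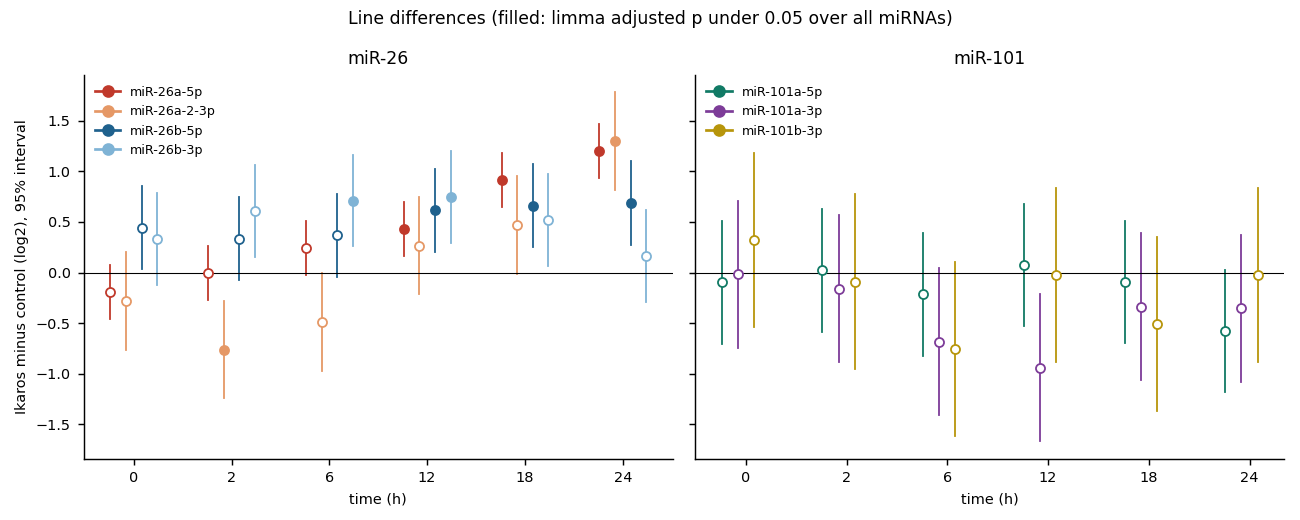
Ikaros minus control in log2 units (y axis) at each time in hours (x axis), with 95% intervals from limma, for the miR-26 names (left) and the miR-101 names (right). Filled points are past the threshold over 469 miRNAs. miR-26a-5p rises from -0.20 to 1.20, miR-26a-2-3p passes from -0.76 at 2 h to 1.30 at 24 h, and no miR-101 point is filled.

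The partner strand miR-26a-2-3p took a different course. In the Ikaros line it was at 4.09, 4.50 and 4.13 at 0 h, at 2.93, 3.76 and 3.57 at 2 h, and at 4.20, 3.96 and 4.10 at 6 h. By 12 h it had reached 4.49, 4.63 and 5.01, followed by 5.07, 4.93 and 5.20 (18 h) and by 5.71, 5.76 and 5.33 (24 h). The 2 h values were the lowest of the course and did not overlap those of 0 h or 6 h.

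In the control line miR-26a-2-3p lay between 3.82 and 4.79 over all times. Its values were 4.52, 4.20 and 3.84 at 2 h and 4.64, 4.44 and 3.82 at 24 h. The Ikaros samples lay below all control samples at 2 h and 6 h, overlapped them at 0 h and 12 h, and lay above them at 18 h and 24 h.

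Its line difference was -0.76 at 2 h (SE 0.24, limma adjusted p = 0.037), the 1 member past the threshold at that time, where 11.3% of all miRNAs were called. Without replicate 1, in which the Ikaros value was 2.93, the 2 h difference was -0.35 (adjusted p = 0.53), and over all alternatives the adjusted p ran from 0.024 to 0.53. The difference was -0.49 at 6 h (adjusted p = 0.19), 0.27 at 12 h (adjusted p = 0.45), 0.47 at 18 h (adjusted p = 0.14) and 1.30 at 24 h (adjusted p = 6.5e-05). The 24 h call was kept in all 9 alternatives.

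miR-26b-5p stood higher in the Ikaros line at every time and did not climb. In the Ikaros line it was at 10.89, 10.95 and 11.41 at 0 h and at 10.72, 11.07 and 11.29 at 24 h, with the 18 samples between 10.49 and 11.42. In the control line it was at 10.35, 10.68 and 10.89 at 0 h and at 10.10, 10.59 and 10.32 at 24 h, with the 18 samples between 10.10 and 10.89. The groups overlapped at 0 h and 2 h and did not at the 4 later times, and in all 18 same-numbered pairs the Ikaros sample was the higher one.

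The line difference of miR-26b-5p was 0.44 at 0 h (SE 0.20, limma adjusted p = 0.25), 0.34 at 2 h (adjusted p = 0.33) and 0.37 at 6 h (adjusted p = 0.26). It passed the threshold with 0.61 at 12 h (adjusted p = 0.029), 0.66 at 18 h (adjusted p = 0.013) and 0.69 at 24 h (adjusted p = 0.0076). The 95% intervals at 0 h (0.03 to 0.86) and at 24 h (0.27 to 1.10) overlapped over most of their width. Leaving out replicate 2 or replicate 4 ended the 24 h call, with adjusted p = 0.053 and 0.071, and the alternatives ran from 0.0015 to 0.071. The calls at 12 h and 18 h were lost without replicate 1 or replicate 2, and the adjusted p reached 0.25 and 0.19 over all alternatives.

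miR-26b-3p, the partner strand of miR-26b-5p, fell in the Ikaros line. There it was at 7.51, 7.66 and 7.32 at 0 h, at 7.41, 7.81 and 7.99 at 2 h, and at 6.97, 6.66 and 6.94 at 24 h. In the control line it was at 6.98, 7.60 and 6.92 at 0 h, at 6.98, 7.22 and 7.19 at 2 h, at 6.53, 5.60 and 6.86 at 12 h, and at 6.63, 6.54 and 6.90 at 24 h. The control mean was also lower at 24 h (6.69) than at 0 h (7.16). The Ikaros groups lay above the control groups from 2 h to 18 h and overlapped them at 0 h and 24 h.

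The line difference of miR-26b-3p was 0.71 at 6 h (SE 0.22, limma adjusted p = 0.028), the 1 member past the threshold at that time beside 15.1% of all miRNAs, and 0.74 at 12 h (adjusted p = 0.016). At 12 h it was 1 of 3 members past the threshold, with 21.7% of all miRNAs, and without replicate 2, which held the control value of 5.60, the difference was 0.38 (adjusted p = 0.34, within a range of 0.0089 to 0.34). The 6 h call was lost on leaving out any 1 replicate (adjusted p up to 0.27). At 2 h the difference was 0.60 (adjusted p = 0.070, or 0.043 with the culture batch as a block) and at 18 h 0.52 (adjusted p = 0.077, or 0.050 with the block, just under the threshold). At 24 h it was 0.16 (adjusted p = 0.60). At 18 h 2 members, miR-26a-5p and miR-26b-5p, were past the threshold, with 29.9% of all miRNAs.

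At 0 h no member was past the threshold in limma, with 1 at an unadjusted p under 0.05, and 8.53% of all miRNAs were called. The number of members whose 3 Ikaros values did not overlap the 3 control values was 1, 2, 4, 4, 4 and 3 at the 6 times, beside 26.2%, 26.0%, 34.3%, 25.6%, 47.5% and 54.2% of all miRNAs. Per the study's methods, the libraries were prepared and sequenced on more than one occasion, with some samples repeated, and the authors corrected for it. The labels do not give the occasion of a sample, so no value within an occasion was computed, and its part in the line differences was not tested.

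The comparison over time asks how far a miRNA moved within a line. From 2 h to 24 h, which come from the same culture batches, miR-26a-5p rose in the Ikaros line by 1.36, 1.16 and 1.10 in the 3 batches and moved by -0.06, -0.21 and 0.26 in the control line. miR-26a-2-3p rose in the Ikaros line by 2.78, 2.00 and 1.76 and moved by 0.12, 0.24 and -0.02 in the control line. In the Ikaros line these came to a change of 1.21 for miR-26a-5p (SE 0.13, limma adjusted p = 3.7e-08) and of 2.18 for miR-26a-2-3p (SE 0.24, adjusted p = 3.7e-08). The rise of miR-26a-2-3p was the 2nd largest of the 469 miRNAs, and that of miR-26a-5p the 19th. Counted from 0 h, across culture batches, miR-26a-2-3p was 21st and miR-26a-5p 20th. The rise of miR-26a-2-3p from 2 h starts at the lowest point of its course in the Ikaros line. Its control mean was also lower at 2 h (4.18) than at 0 h (4.52) and 6 h (4.58).

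miR-26b-3p fell by 0.88 over the same times in the Ikaros line (SE 0.22, limma adjusted p = 0.0035), so that 3 members were past the threshold in the Ikaros line, beside 28.6% of all miRNAs. It moved by -0.44, -1.15 and -1.05 in the Ikaros batches and by -0.34, -0.68 and -0.29 in the control batches. In the control line its change of -0.44 did not pass the threshold (adjusted p = 0.66), and the difference between the lines in this change was -0.44 (95% interval -1.08 to 0.20, adjusted p = 0.37). In the control line limma called no miRNA of the table from 2 h to 24 h (0% of all, 33 at an unadjusted p under 0.05) or from 0 h to 24 h (0%, 16 at an unadjusted p under 0.05).

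The line difference itself changed from 2 h to 24 h by 1.21 for miR-26a-5p (SE 0.19, limma adjusted p = 3.1e-05) and by 2.07 for miR-26a-2-3p (SE 0.33, adjusted p = 4.5e-05), 2 members beside 14.3% of all miRNAs. This contrast was added after the data had been seen. From 0 h to 24 h the line difference grew by 1.40 for miR-26a-5p (SE 0.19, adjusted p = 3.2e-06) and by 1.58 for miR-26a-2-3p (SE 0.33, adjusted p = 0.0018), again 2 members, both called as a gain of the Ikaros line, as were 5.76% of all miRNAs, while 6.61% were called the other way. These contrasts use the same 24 h samples. Without replicate 1 or 2, the value of miR-26a-2-3p from 0 h was 1.49 or 1.64 (adjusted p = 0.059 and 0.053, with a range of 0.00078 to 0.059 over the alternatives). For miR-26b-5p the line difference changed by 0.24 from 0 h (95% interval -0.34 to 0.83, adjusted p = 0.60), an interval that does not reach the 1.40 of miR-26a-5p.

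From 0 h to 24 h within the Ikaros line, which also crosses culture batches, miR-26a-5p changed by 1.37 (limma adjusted p = 4.2e-09), miR-26a-2-3p by 1.36 (adjusted p = 7.4e-05) and miR-26b-3p by -0.64 (adjusted p = 0.027), 3 members beside 30.7% of all miRNAs. The fall of miR-26b-3p was -0.48 after each sample's median was subtracted (adjusted p = 0.13, within a range of 0.023 to 0.21). In the moderated F-test over all 6 times, the line difference of miR-26a-5p (adjusted p = 7.4e-06) and miR-26a-2-3p (adjusted p = 0.00038) changed with time, where 13.0% of all miRNAs did. The F-test within the Ikaros line called miR-26a-5p (adjusted p = 9.6e-09), miR-26a-2-3p (adjusted p = 3.8e-07) and miR-26b-3p (adjusted p = 0.013), with 26.7% of all miRNAs. Within the control line it called no member, 2 at an unadjusted p under 0.05, and 0.426% of all miRNAs. Those 2 were miR-101a-5p and miR-26b-3p. For miR-26b-3p the unadjusted F-test p was 0.0018 in the control line (adjusted p = 0.105) and 0.0023 in the Ikaros line. From 0 h to 24 h it changed by -0.47 in the control line (SE 0.22, limma adjusted p = 0.95). Its line difference changed by -0.17 over these times (SE 0.31, adjusted p = 0.75), so a fall of the Ikaros line alone was not shown.

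**Figure D3:**
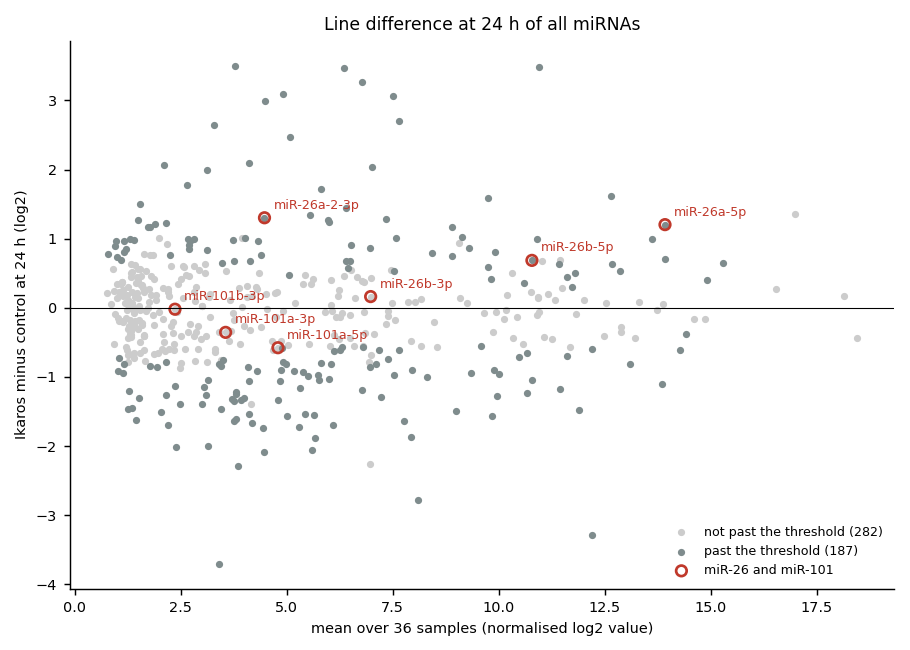
Ikaros minus control at 24 h in log2 units (y axis) against the mean normalised log2 value over 36 samples (x axis) for all 469 miRNAs. Dark points are past the limma threshold and red rings mark the members. miR-26a-5p is far to the right at 1.20, miR-26a-2-3p at 1.30 has a mean of 4.48, and the 3 miR-101 names lie at or below 0.

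Subtracting each sample's median moved the median 24 h line difference of all miRNAs from -0.07 to 0.17 and turned the split of the calls from 84 higher and 103 lower to 111 higher and 65 lower. On that scale the 24 h difference was 1.44 for miR-26a-5p, 1.54 for miR-26a-2-3p, 0.92 for miR-26b-5p and 0.40 for miR-26b-3p, each above the shifted median. Ranked by the 24 h difference as deposited, miR-26a-2-3p was 23rd, miR-26a-5p 30th, miR-26b-5p 74th and miR-26b-3p 179th of 469.

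None of the miR-101 names was past the threshold in limma in any contrast of the main model. As counted, miR-101a-5p was the more abundant arm of Mir101a, above miR-101a-3p in all 36 samples, although miR-101a-3p is the strand usually taken as the guide. How reads that fit miR-101a-3p and also miR-101b-3p or miR-101c were assigned is not given, so the level of miR-101a-3p carries that uncertainty. Its part in the order of the arms was not tested. The difference 3p minus 5p was -1.24 on average and ran from -3.22 to -0.13. Other hairpins of the table also had the strand usually taken as the guide as the lower one. The means were 1.78 for miR-30e-5p against 11.16 for miR-30e-3p, and 2.69 for miR-30d-5p against 9.09 for miR-30d-3p. In contrast, miR-30b-5p (11.83) stood above miR-30b-3p (6.51). How many hairpins had either order was not counted.

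mmu-miR-101a-5p was at 5.12, 5.29 and 5.33 in the control line at 0 h and at 4.94, 5.05 and 5.44 in the Ikaros line. At 24 h it was at 4.57, 4.83 and 6.62 in the control line and at 4.89, 4.47 and 4.93 in the Ikaros line. The control sample at 6.62 stood apart, since the other 35 samples lay between 4.23 and 5.44. In both lines the 0 h samples lay at 4.94 or above, and all later samples except that one at 4.93 or below. The 0 h samples come from other culture batches, so time and culture batch cannot be told apart in this step. The line difference at 24 h was -0.58 (SE 0.30, limma adjusted p = 0.12), and it was -0.02 without replicate 4, which holds that sample.

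mmu-miR-101a-3p was at 3.55, 3.65 and 3.89 in the control line and at 2.97, 3.98 and 4.10 in the Ikaros line at 0 h. At 12 h it was at 3.93, 4.50 and 3.79 in the control line and at 2.87, 2.93 and 3.61 in the Ikaros line, the only time at which its groups did not overlap. The 12 h difference was -0.94 (SE 0.36, limma adjusted p = 0.055), and it passed with the culture batch as a block (adjusted p = 0.025) and without replicate 4 (-1.32, adjusted p = 0.033), within a range of 0.025 to 0.45. At 24 h it was at 3.10, 3.62 and 3.40 in the control line and at 2.25, 3.27 and 3.54 in the Ikaros line, a difference of -0.36 (95% interval -1.08 to 0.37, adjusted p = 0.47).

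miR-101b-3p, the lowest and most variable member, was at 1.76, 2.55 and 1.97 in the control line and at 1.54, 2.29 and 2.39 in the Ikaros line at 24 h. All its groups overlapped between the lines. The lowest sample, at 0.99, was an Ikaros sample of 6 h, where the others of its group were both above 2. The 24 h difference was -0.02 with a 95% interval of -0.88 to 0.84 (limma adjusted p = 0.97), so that a change as large as that of miR-26b-5p in either direction was within its error.

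The arms of a hairpin come from one precursor, and the difference 3p minus 5p does not hold its level. The pair of miR-26a-2-3p and miR-26a-5p is an exception, since miR-26a-5p is also made from Mir26a-1. Its difference therefore also holds the level of Mir26a-1 against that of Mir26a-2. For miR-26a-2-3p against miR-26a-5p the mean difference was -9.45, and for miR-26b-3p against miR-26b-5p it was -3.80. None of the 3 arm pairs of the members differed between the lines at 24 h in limma over 151 arm pairs (0 at an unadjusted p under 0.05), where 16.6% of the pairs were called. The difference between the lines at 24 h was 0.10 for miR-26a (95% interval -0.44 to 0.64), -0.52 for miR-26b (-1.22 to 0.17) and 0.22 for miR-101a (-0.68 to 1.12). Nor did any of the 3 change between 0 h and 24 h past the threshold (0 at an unadjusted p under 0.05), with 7.28% of the pairs called. In the Ikaros line the miR-26a arm difference was -9.38 ± 0.19 (SD, n = 3) at 0 h, -10.36 ± 0.35 at 2 h and -9.38 ± 0.31 at 24 h, and in the control line -9.29 ± 0.27, -9.60 ± 0.30 and -9.48 ± 0.56. At 2 h all Ikaros values of the miR-26a pair lay below all control values (highest -9.99, lowest control -9.84). The same held at 6 h (-9.67 and -9.15) and 18 h (-9.40 and -9.25). At 0 h, 12 h and 24 h its groups overlapped. The miR-101a pair had its Ikaros values below control at 12 h alone (-1.26 and -0.61), and the miR-26b groups overlapped at every time. Line differences of the arms before 24 h, and their change from 2 h to 24 h, were not tested.

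The balance of miR-26a against miR-26b, which carry the same seeds, moved with the line most firmly in the 3p arms. Of the gains tested, only that of the 3p balance from 2 h to 24 h was kept in all 6 alternatives. miR-26a-5p minus miR-26b-5p was 2.53 ± 0.24 (SD, n = 3) at 0 h and 3.96 ± 0.27 at 24 h in the Ikaros line, and 3.17 ± 0.34 and 3.44 ± 0.30 in the control line. As a share of the linear sum of both, miR-26a-5p was 85.2% ± 2.1 (0 h) and 93.9% ± 1.0 (24 h) in the Ikaros line, against 89.9% ± 2.1 and 91.5% ± 1.7 in the control line. The sum of both guides was 1.02% ± 0.09 of the table at 0 h and 2.34% ± 0.33 at 24 h in the Ikaros line, and 1.19% ± 0.04 and 1.15% ± 0.09 in the control line. This test of paired copies was added after the data had been seen.

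In limma over 175 such pairs of copies, the line difference in the balance of the 5p arms grew by 1.16 from 0 h to 24 h (SE 0.32, adjusted p = 0.021). It was lost on leaving out any 1 replicate, with an adjusted p of up to 0.26 (0.018 to 0.26 over all alternatives). For miR-26a-2-3p minus miR-26b-3p the growth was 1.75 (SE 0.40, adjusted p = 0.0061), likewise lost on leaving out any 1 replicate (adjusted p up to 0.15). These were 2 of the 3 pairs of members, beside 6.29% of all pairs.

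From 2 h to 24 h the line difference in the 3p balance grew by 2.51 (SE 0.40, limma adjusted p = 0.00014) and was kept in all 6 alternatives, while that of the 5p balance was 0.86 (adjusted p = 0.097), 1 pair of 3 beside 5.71% of all pairs. At 24 h itself the difference was 1.14 for the 3p arms (adjusted p = 0.0046, lost without replicate 2 or 4 with 0.067 and 0.052) and 0.52 for the 5p arms (adjusted p = 0.094), with 25.7% of all pairs called. miR-101a-3p minus miR-101b-3p was not past the threshold in any of these contrasts, with a 24 h difference of -0.34 (95% interval -1.22 to 0.55).

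**Figure D4:**
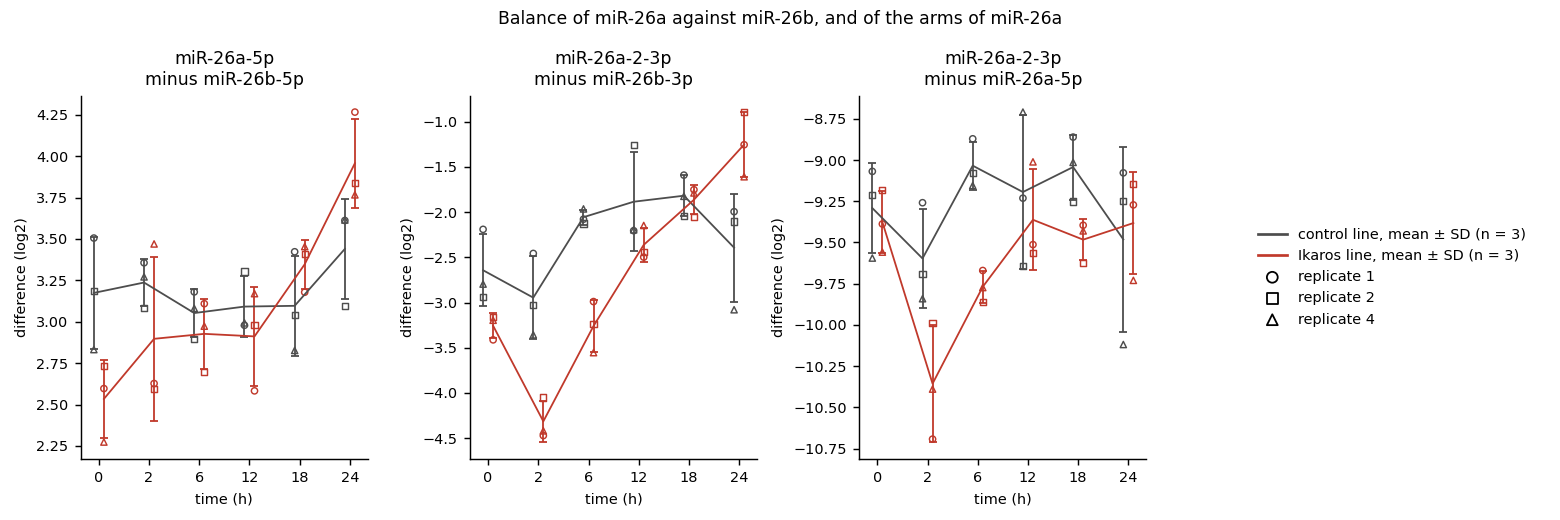
Differences of log2 values within each sample (y axis) against time in hours (x axis, evenly spaced steps) for miR-26a-5p minus miR-26b-5p, miR-26a-2-3p minus miR-26b-3p and miR-26a-2-3p minus miR-26a-5p. Points are samples, lines join means of 3 and bars are the SD. In the Ikaros line the means at 0, 2 and 24 h are 2.53, 2.90 and 3.96 for the first. They are -3.26, -4.31 and -1.25 for the second, and -9.38, -10.36 and -9.38 for the third.

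The likeness of courses was measured by Pearson's r over the 12 group means, which include the shared difference between the lines, and is given as a description. miR-26a-5p was most like miR-328-3p (0.94), miR-93-5p (0.94) and miR-1949 (0.94). miR-26b-5p was most like miR-28a-5p (0.95), miR-322-3p (0.94) and miR-872-5p (0.94). miR-101a-5p was most like miR-879-3p (0.76), and miR-101b-3p most like miR-669e-5p (0.82). Among the members themselves, r was 0.75 for miR-26a-5p with miR-26a-2-3p, 0.57 for miR-26a-5p with miR-26b-5p and 0.51 for miR-26b-5p with miR-26b-3p. It was 0.69 for miR-101a-3p with miR-101b-3p and 0.04 for the arms of miR-101a.

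Other miRNAs that Myc is known to repress were taken as a list without the members, and 19 of its 21 names were in the table. At 24 h 8 of the 19 were past the limma threshold as higher in the Ikaros line and 1 as lower, beside 17.9% and 22.0% of all miRNAs, and the median difference was 0.36 against -0.07 over all. miR-29c-3p was 1.71 higher (SE 0.17, adjusted p = 2.8e-09) and miR-22-3p 1.62 higher (SE 0.13, adjusted p = 4.1e-11). miR-34a-5p, which p53 is known to induce, was 0.90 lower (SE 0.17, adjusted p = 0.00010). From 0 h to 24 h the line difference grew past the threshold in 3 of the 19 and fell in 1, beside 5.76% and 6.61% of all miRNAs, with a median of 0.32 against -0.05 over all.

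Of 5 other miRNAs known to target Ezh2, 1 was in the table. miR-138-5p differed between the lines by -0.44 at 24 h (SE 0.18, limma adjusted p = 0.059). None of the 5 blood cell marks was past the threshold at 24 h, beside 39.9% of all miRNAs. Of these marks 0 were at an unadjusted p under 0.05, and their median difference was -0.16.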

How the data were processed

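Small RNA was sequenced from 36 samples. The authors' steps, per their methods, were alignment to mouse sequences of miRBase (Novoalign), counting (multiBamCov, bedtools), removal of miRNAs low in CPM (NOISeq), a GC correction (cqn), TMM, a ComBat correction for sequencing batch and an average over technical replicates. Versions are not given in the sources used here, and the submitters' notes name mm10. The table deposited by the authors thus holds normalised log2 values, which were tested unchanged, and no counts.

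Groups were the line and time of the labels. All 36 samples entered 1 limma 3.58.1 model (R 4.3.3, lmFit, eBayes with a mean-variance trend) with 12 group means. P-values were adjusted by Benjamini-Hochberg over the 469 miRNAs per contrast, with a threshold of 0.05. Arm and copy balances were fitted likewise over 151 and 175 pairs. The fits were also run on simulated data with independent noise in each sample and no shared culture batch. Such a run cannot give the error rates under the correlation of these samples. Same-numbered samples of both lines at a time share a culture batch in the labels, which pairs them, and their deviations from the group means correlated with r = 0.26 (0.06 to 0.41 by time). A fit with that block, other scalings, a filter on low miRNAs, no trend, only the groups compared, and each replicate left out were the alternatives.

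All members were named. Added were the 3 miRNAs most like each member with the higher mean of its hairpin, of which some are printed, miRNAs with the same seed, and, of the miRNAs known to be repressed by Myc or to target Ezh2, the 2 largest 24 h differences each way past the threshold. The marks of cell types were named after their values were seen. The members and lists were chosen with earlier results of these data known. Python 3.11.15, pandas 2.3.3, numpy 2.4.6 and matplotlib 3.10.9 were used for the rest.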

Additional observations from a re-analysis of the deposited data

Results flagged for a closer look

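The changes named here differed between the lines by a test of the difference itself (limma). From 0 h to 24 h, across culture batches, the Ikaros line gained 1.40 more than the control line for miR-26a-5p and 1.58 more for miR-26a-2-3p. The gain of miR-26a-2-3p was past the threshold in 7 of 9 alternatives (limma adjusted p up to 0.059). It was lost without replicate 1 or replicate 2. From 2 h to 24 h, within culture batches, the Ikaros line gained 1.21 and 2.07 more, in a contrast added after the data had been seen.

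In the balance of copies with the same seed, miR-26a-2-3p minus miR-26b-3p grew by 1.75 more in the Ikaros line from 0 h and by 2.51 more from 2 h, and miR-26a-5p minus miR-26b-5p by 1.16 more from 0 h. Both gains from 0 h cross culture batches and were lost on leaving out any 1 replicate. From 2 h the gain of the 5p balance was 0.86 and not past the threshold (limma adjusted p = 0.097). The test of copies was added after the data had been seen.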

How the results depend on the processing

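The calls of miR-26a-5p at 18 h and 24 h and of miR-26a-2-3p at 24 h, and the change of both from 2 h to 24 h, were past the threshold in all 9 alternatives (8 within a line). Of 404 values of single miRNAs or pairs under an alternative, 349 kept direction and side of the threshold, 38 lost it, 8 gained it and 9 changed sign, the last with adjusted p of 0.517 or more. The number of members called was 0 at 2 h, 6 h and 12 h with quantile normalization, and 0 at 2 h and 12 h when only the groups compared were fitted. It was 2 at 2 h with the replicate block and 4 at 18 h with sample medians subtracted. The block changed the call of miR-26b-3p at 2 h and 18 h and of miR-101a-3p at 12 h, and no other among the members. With 1 replicate left out the number called was 0 to 1 at 2 h, 0 at 6 h, 0 to 3 at 12 h, 1 to 2 at 18 h and from 0 h to 24 h, and 1 to 2 in the F-test of the line difference. For the balance of copies it was 0 to 1 at 24 h and 0 from 0 h. Signs changed for miR-26a-5p at 2 h (0.011 with medians subtracted, -0.15 to 0.070 with 1 replicate left out) and for miR-101b-3p at 24 h (0.21 with medians subtracted, 0.11 with quantile normalization, -0.24 to 0.10 with 1 replicate left out). They also changed for the 24 h arm differences of miR-101a (-0.58 to 0.92) and miR-26a (-0.046 to 0.25) with 1 replicate left out. The cause was not tested. How far depth limits the low miR-101 names is unknown from the table.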
